A study of Homo sapiens with 6 samples.

Results

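The polyamine metabolism genes were examined in RNA sequencing of HPNE-hTERT cells, an hTERT-immortalized, non-malignant cell line from human pancreatic duct. Members were the rows of the deposited table whose gene name was SAT1, SAT2, SMOX, PAOX, ODC1, OAZ1, OAZ2, AZIN1, SRM or SMS, 10 of 62754 genes. All 10 passed the filter on low values, at least 3 libraries with a normalized value no lower than 10, as did 17951 genes in all. The treated group received FOLFIRINOX, here 5-fluorouracil at 10 µM with oxaliplatin at 5 µM and SN-38, the active form of irinotecan, at 25 nM, for 4 days, a regimen given to bring on senescence. The control group received the vehicle DMSO and was also collected at day 4. Each group had 3 libraries, named P14, P15 and P19 in the table, and all came from this 1 line, so no second donor or line is represented. Whether they came from separate cultures is stated in no label, so the spread behind each p-value is that between these libraries and may be technical.

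Polyamines are small positively charged molecules that bind nucleic acids and are needed for growth and translation. ODC, encoded by ODC1, makes putrescine from ornithine, SRM turns putrescine into spermidine, and SMS turns spermidine into spermine. The acetyltransferase SAT1 marks spermidine and spermine for export or for oxidation by PAOX, while SMOX oxidizes spermine directly. Antizymes, encoded by the OAZ genes, bind ODC and send it to the proteasome, and AZIN1 is an inactive ODC relative that captures antizyme. SAT1 is a known p53 target, ODC1 and SRM are known MYC targets, and much of the control of this pathway acts on translation and protein stability, which RNA counts do not measure.

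The libraries held 83981154 to 91992824 reads in FOLFIRINOX and 86435436 to 97762802 in vehicle. MKI67, a proliferation gene, had 24.3 to 37.4 normalized reads in FOLFIRINOX libraries and 9761 to 16160.4 in vehicle libraries, while CDKN1A, the p21 gene, had 179712 to 234374 in FOLFIRINOX and 17018 to 26998 in vehicle. Over all genes tested, 11.4% were called higher and 12.2% lower in FOLFIRINOX, 23.6% in either direction (2047 and 2191 genes, limma adjusted p under 0.05). With every library scaled to a common total the split was 2691 higher and 1696 lower, and the median log2 difference of all genes moved to 0.13, against 0.02 with the authors' scaling. The share of reads from mitochondrial ribosomal RNA was 2.74%, 1.18% and 1.23% in FOLFIRINOX P14, P15 and P19. It was 0.864%, 0.563% and 0.552% in vehicle P14, P15 and P19. Its part in the results was not tested, and values without both P14 libraries are given where they change a call. Of 9 ductal epithelial markers 6 averaged 10 or more normalized reads in either group, and their summed level over all 9 was 8962 to 9959 in FOLFIRINOX and 11979 to 14440 in vehicle. EPCAM had no read in 5 of the 6 libraries, and KRT19 and CFTR averaged under 10 in both groups. All 7 mesenchymal markers were present, at a summed level of 2386663 to 2883783 in FOLFIRINOX and 3308375 to 4908726 in vehicle. The cells thus held only part of the ductal epithelial markers, beside all of the mesenchymal ones. Each sum came mostly from a single gene and says little of the others. FN1 averaged 1879127 in FOLFIRINOX and 2772919 in vehicle, and KRT18 averaged 7148 and 9901. In bulk RNA, fewer cells with a transcript and less of it per cell cannot be told apart.

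Of the 10 polyamine genes, SAT1 rose in FOLFIRINOX, ODC1 and SMS fell, and 7 were not called (limma-trend on log2(value + 1), Benjamini-Hochberg adjusted p under 0.05 over all 17951 genes). The members thus had 1 higher and 2 lower calls of 10, beside a background of 11.4% and 12.2%. Treatment was the only term of this fit, which does not use the P number. With the P number as a replicate block there were 1 higher and 3 lower calls, beside 22.3% and 21.8% of all genes. The call added was SRM, lower (limma adjusted p = 0.0378). In either fit the median log2 difference of the members was −0.22, against 0.02 over all genes tested. Groups did not overlap for 4 members, SAT1 and OAZ2 on the high side and ODC1 and SMS on the low side, beside 39.5% of all genes, 19.9% on the high side and 19.6% on the low side. The sign of the difference was the same within P14, P15 and P19 for 6 members, beside 65.2% of all genes. The authors' deposited table also had SAT1 higher and ODC1 and SMS lower at its adjusted p under 0.05 (5.8e-20, 0.0224 and 0.0154), with no other member past it.

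**Figure D1:**
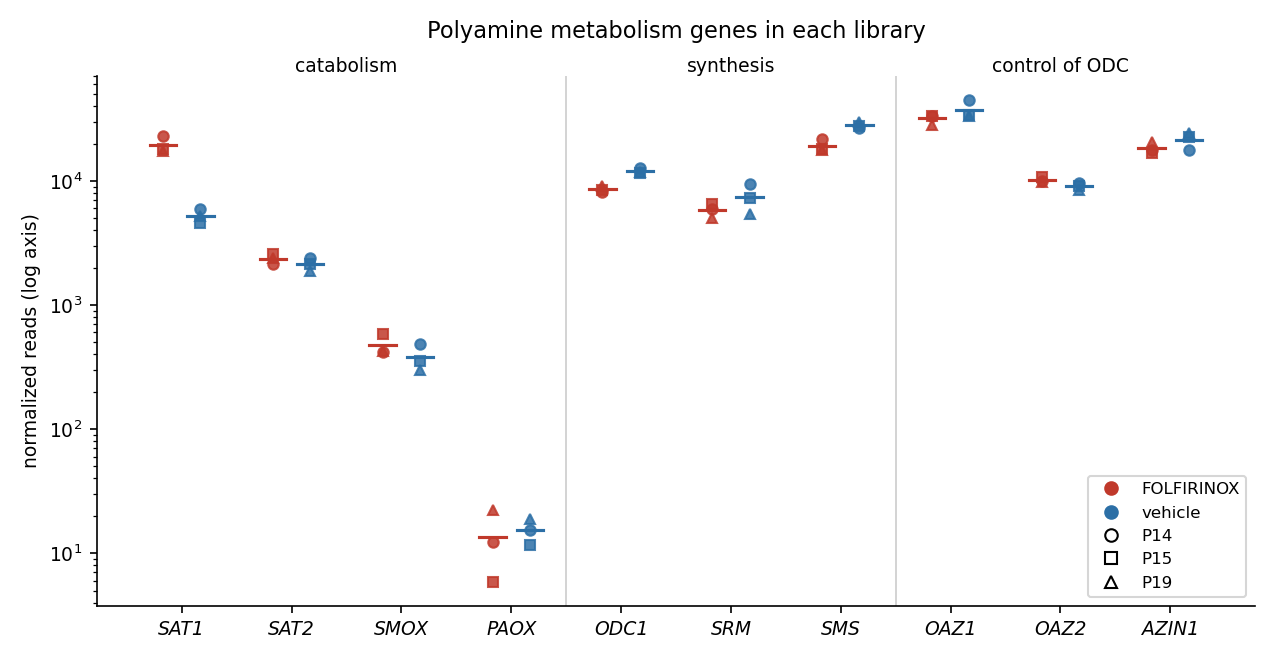
Normalized reads (log axis) of the 10 polyamine genes in each library, FOLFIRINOX in red at the left of each pair and vehicle in blue at the right, with horizontal bars at the group means of 3 libraries and symbols for the P number. SAT1 lies at 17341 to 22801 in FOLFIRINOX, above 4561 to 5954 in vehicle, while PAOX stays below 23 in all 6 libraries.

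SAT1 (ENSG00000130066), the rate-limiting enzyme of polyamine breakdown, lies on the forward strand of the X chromosome at 23783173 to 23786226 (GRCh38, GENCODE 29). It had 22801, 17908 and 17341 normalized reads in FOLFIRINOX libraries P14, P15 and P19, while vehicle libraries P14, P15 and P19 had 5954, 4561 and 5193. P14 was the highest library of each group, and the lowest FOLFIRINOX value was well above the highest vehicle value. The means were 19350.1 ± 3002 in FOLFIRINOX and 5236 ± 697 in vehicle (SD, n = 3 each). The log2 difference was 1.88 ± 0.17 (SE, 95% interval 1.51 to 2.26, limma adjusted p = 1.9e-05), a 3.69-fold rise with an interval of 2.84 to 4.79. Within P14, P15 and P19 the log2 differences were 1.94, 1.97 and 1.74, so the 3 pairs differed little from each other. Without both P14 libraries, each the highest of its own group in mitochondrial ribosomal RNA share, it was 1.86 (limma adjusted p = 3.7e-04). Of 8493 genes with a vehicle mean of 1000 or more, 34 had a larger log2 difference than SAT1.

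The 250 bases upstream of the SAT1 start (RefSeq, GRCh38.p14, chrX:23782923-23783172, forward strand) are shown because SAT1 is the member that moved most, with CCAAT boxes in capitals on either strand:
SAT1: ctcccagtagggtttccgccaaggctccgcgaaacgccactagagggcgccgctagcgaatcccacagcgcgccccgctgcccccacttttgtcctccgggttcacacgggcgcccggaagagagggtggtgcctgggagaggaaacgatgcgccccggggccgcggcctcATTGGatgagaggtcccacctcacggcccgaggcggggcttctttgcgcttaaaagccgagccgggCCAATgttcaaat
The window held the CCAAT box at positions −79 and −13 from the start. It held none of the other motifs searched on both strands, namely the E-box CACGTG, the cAMP response element TGACGTCA, the antioxidant response element core TGACNNNGC, the polyamine response element TATGACTAA, the TATA box TATAAA, the GC box GGGCGG and the p53 decamer. Among 35116 promoter windows of 250 bases, 32.0% held a CCAAT box, 42.6% a GC box, 10.9% the antioxidant response element core, 10.7% the TATA box, 6.34% the E-box, 5.57% the p53 decamer, 1.65% the cAMP response element and 0.0826% the polyamine response element. A missing match says only that these letters are not in this window.

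SAT2, a relative of SAT1 whose main substrate is thought to be the modified lysine thialysine, did not pass the test. It had 2125, 2585 and 2394 normalized reads in FOLFIRINOX, against 2387, 2145 and 1889.8 in vehicle. The groups overlapped, and P14 was lower in FOLFIRINOX while P15 and P19 were higher. SAT2 differed by 0.15 ± 0.17 on the log2 scale (95% interval −0.22 to 0.51, limma adjusted p = 0.558), so a rise of the size of SAT1 lies outside the interval. With the replicate block on P number and GC trends removed SAT2 was called higher (0.30, limma adjusted p = 0.0081).

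SMOX, the spermine oxidase that yields hydrogen peroxide, had 419, 588 and 424 normalized reads in FOLFIRINOX, against 486, 352 and 299 in vehicle. The vehicle P14 library was above 2 of the FOLFIRINOX libraries, so the groups overlapped. On the log2 scale SMOX differed by 0.34 ± 0.23 (95% interval −0.17 to 0.86, limma adjusted p = 0.322), and within P14, P15 and P19 it was −0.21, 0.74 and 0.50. SMOX was called higher after GC trends were removed in the blocked fit (0.51, limma adjusted p = 0.0037).

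PAOX, the peroxisomal oxidase of acetylated polyamines, was near the limit of counting. It had 12, 6 and 24 reads in FOLFIRINOX and 15, 11 and 20 in vehicle, or 13.6 ± 8.32 and 15.2 ± 3.51 normalized reads (SD, n = 3 each). The log2 difference of −0.31 had a 95% interval of −1.53 to 0.92 (limma adjusted p = 0.728). The values were thus compatible with a fall or a rise within that interval. PAOX also shares 158 exonic bases with an annotated gene on the same strand, ENSG00000254536, which had 38.3 to 60.0 normalized reads in FOLFIRINOX and 31.8 to 45.6 in vehicle, so its count is uncertain.

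**Figure D2:**
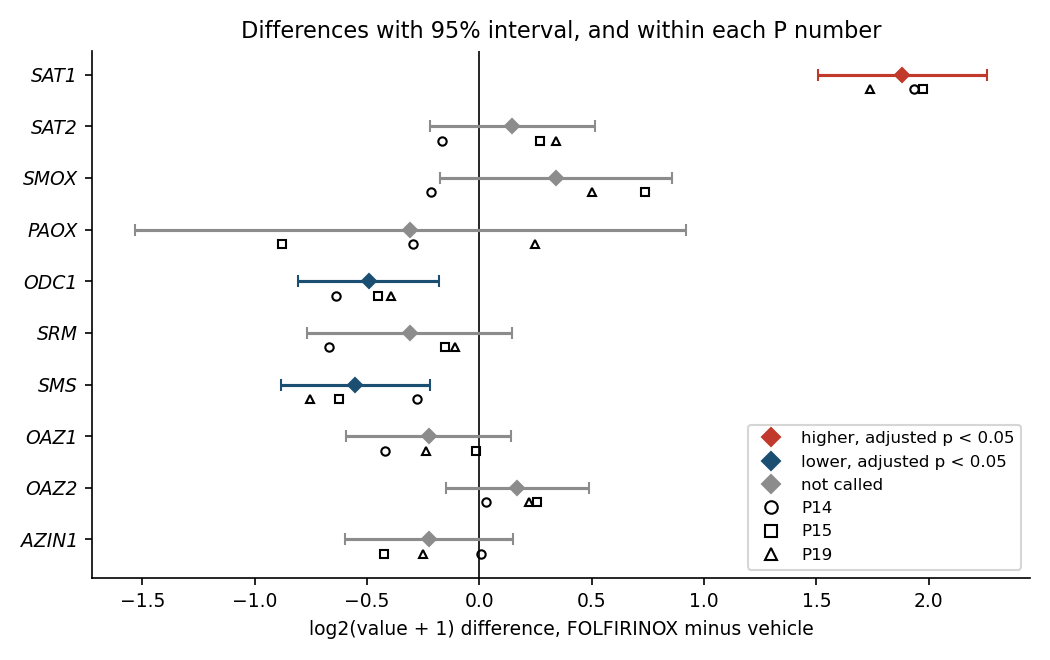
Log2(value + 1) difference, FOLFIRINOX minus vehicle, for each polyamine gene: diamonds with bars are the limma estimate and its 95% interval over 3 libraries per group, and open symbols are the differences within P14, P15 and P19. The SAT1 interval, 1.51 to 2.26, lies apart from those of the other members, and the intervals of ODC1 and SMS lie below 0.

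On the synthesis side all 3 enzymes had lower values in FOLFIRINOX within every P number, and ODC1 and SMS passed the test. ODC1 (ENSG00000115758, chromosome 2, 10439968 to 10448504, reverse strand), the rate-limiting enzyme of polyamine synthesis, had 8094, 8479.7 and 9025 normalized reads in FOLFIRINOX, against 12595, 11579 and 11838 in vehicle. The groups were tight and did not overlap. The means were 8533 ± 468 in FOLFIRINOX and 12004 ± 528 in vehicle (SD, n = 3 each), a log2 difference of −0.49 ± 0.14 (95% interval −0.81 to −0.18, limma adjusted p = 0.0288). This is a fold of 0.711. Leaving out any single library other than vehicle P19 ended the call (limma adjusted p 0.0735 to 0.0880), as did leaving out both P14 libraries (0.121), as did common-total scaling (0.0986), limma without trend (0.0618) and no filter (0.0506). The direction was the same in each of these fits, and with the P number as a replicate block the adjusted p was 4.9e-04.

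SMS (ENSG00000102172, X chromosome, 21940573 to 21994835, forward strand), which makes spermine, had 21847, 17973 and 17840.0 normalized reads in FOLFIRINOX, against 26469.9, 27709.7 and 30059 in vehicle. Every FOLFIRINOX library was below every vehicle library. The means were 19220.1 ± 2276 in FOLFIRINOX and 28079.6 ± 1823 in vehicle (SD, n = 3 each), a log2 difference of −0.55 ± 0.15 (95% interval −0.88 to −0.22, limma adjusted p = 0.0229). The SMS call was lost without FOLFIRINOX P15 or P19 or vehicle P15 or P19 (limma adjusted p 0.0528 to 0.114), with common-total scaling (0.0621), without the trend (0.0612) and without the filter (0.0511). It held without both P14 libraries (−0.69, limma adjusted p = 0.0206). With the P number as a replicate block the limma adjusted p of SMS was 1.3e-04, and 3.4e-06 with GC trends removed as well.

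SRM, the spermidine synthase, had 5946, 6495 and 5062 normalized reads in FOLFIRINOX, against 9442, 7227 and 5454 in vehicle. The vehicle libraries spread widely, and vehicle P19 was within the FOLFIRINOX range. For SRM the log2 difference was −0.31 ± 0.21 (95% interval −0.77 to 0.15, limma adjusted p = 0.311). Within P14, P15 and P19 it was −0.67, −0.15 and −0.11, and the adjusted p was 0.0378 with the P number as a replicate block and 0.154 with GC trends removed as well (−0.14). With the block 1 member was called higher and 3 lower, beside 22.3% and 21.8% of all genes (44.1% in either direction). With GC trends also removed 3 were called higher and 3 lower, beside 23.8% and 25.2% of all genes. Without vehicle P14 the difference was −0.11 and without both P14 libraries −0.13 (limma adjusted p = 0.732 and 0.731).

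The sequences upstream of the synthesis enzymes are shown because ODC1 and SMS fell and SRM, which was not called, is the enzyme between them. Capitals mark where a searched motif matched. Each runs up to the outermost start annotated in RefSeq or GENCODE 29 (GRCh38.p14, chr2:10448505-10448577 reverse strand for ODC1, chr1:11060025-11060268 reverse strand for SRM, chrX:21940459-21940572 forward strand for SMS), so they differ in length:
ODC1: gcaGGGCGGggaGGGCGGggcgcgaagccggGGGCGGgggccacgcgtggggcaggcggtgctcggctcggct
SRM: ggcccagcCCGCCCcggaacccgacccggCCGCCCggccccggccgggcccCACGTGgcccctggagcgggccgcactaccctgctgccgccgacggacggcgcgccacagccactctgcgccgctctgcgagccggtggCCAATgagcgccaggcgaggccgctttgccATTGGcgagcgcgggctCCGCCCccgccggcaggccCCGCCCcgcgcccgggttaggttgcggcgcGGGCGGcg
SMS: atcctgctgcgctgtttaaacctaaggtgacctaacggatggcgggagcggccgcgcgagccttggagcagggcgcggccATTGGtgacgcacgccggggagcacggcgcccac
The capitals are GC boxes in ODC1, GC boxes, CCAAT boxes and the E-box in SRM, and a CCAAT box in SMS. In ODC1 the E-box, the sequence bound by MYC with its partner MAX, occurred 2 times within 56 bases around the downstream RefSeq start (chr2:10447994-10448049, reverse strand), which is intronic in both GENCODE 29 transcripts that span it:
ODC1 E-boxes: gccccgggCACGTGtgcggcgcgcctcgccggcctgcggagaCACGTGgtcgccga
The RefSeq table had 9 promoter windows for 7 members, and 2 of the 9, 1 of ODC1 and 1 of SRM, held an E-box, beside 6.34% of all windows. SMOX, PAOX and AZIN1 were the other 3 members. The CCAAT box was in 6 of the 9 windows and the GC box in 6, beside 32.0% and 42.6% of all windows. The antioxidant response element core was in 2 of the 9, both of SAT2, beside 10.9%, and the other motifs searched were in 0. The ODC1 and SRM windows with an E-box were 82.4% and 82.0% GC, against a median of 58.0% over all promoter windows. The share with an E-box among windows of like GC was not tested, nor was a role of MYC. MYC itself had 4819 ± 444 normalized reads in FOLFIRINOX and 7089 ± 1042 in vehicle (log2 difference −0.55 ± 0.17, limma adjusted p = 0.0344). The MYC call was lost without any library but vehicle P19 (limma adjusted p 0.0529 to 0.141) and without both P14 libraries (0.157). It was also lost with common-total scaling (0.0958) and without the trend (0.0797). With the P number as a replicate block the limma adjusted p of MYC was 2.5e-04.

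**Figure D3:**
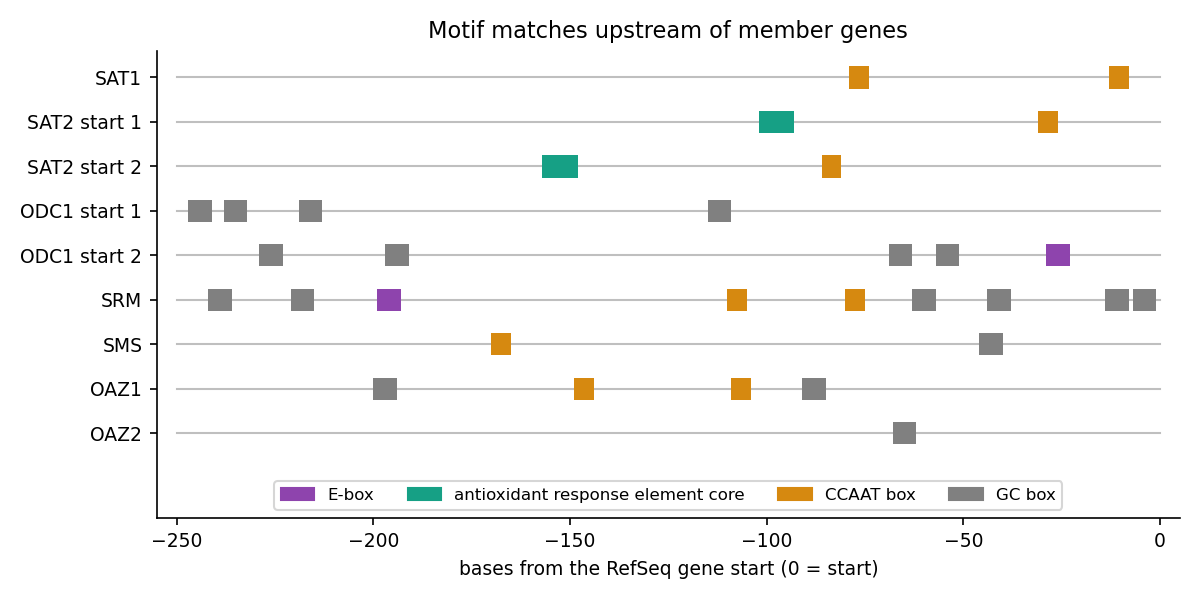
Matches of the searched motifs in the 250 bases upstream of each RefSeq start of the polyamine genes in the promoter table (horizontal axis, bases from the start), with 1 line per start and coloured blocks for motif matches on either strand. E-boxes lie at −199 in SRM and −29 from the downstream start of ODC1, and SAT1 holds CCAAT boxes at −79 and −13.

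None of the 3 genes that control the ODC protein was called by limma without a block, edgeR or DESeq2. None had an unadjusted p under 0.05 in these fits (0 of 3). Over all genes limma called 23.6% in either direction. OAZ1, the main antizyme, whose protein needs a polyamine-stimulated ribosomal frameshift, had 33584, 33503 and 28398 normalized reads in FOLFIRINOX, against 44986, 33878 and 33480.1 in vehicle. FOLFIRINOX P14 and P15 lay within the vehicle range. OAZ1 differed by −0.23 ± 0.17 on the log2 scale (95% interval −0.59 to 0.14, limma adjusted p = 0.362). It shares 236 exonic bases with JSRP1 on the opposite strand, which had 14.9 to 27.5 normalized reads in FOLFIRINOX and 29.9 to 56.3 in vehicle. OAZ2, a second antizyme of broad expression, had 9892, 10809 and 9854 normalized reads in FOLFIRINOX, against 9687, 9036 and 8456 in vehicle. The groups did not overlap, by a gap smaller than the spread within either group. For OAZ2 the log2 difference was 0.17 ± 0.14 (95% interval −0.15 to 0.49, limma adjusted p = 0.430).

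AZIN1, the antizyme inhibitor, had 17653, 16687 and 20480.1 normalized reads in FOLFIRINOX, against 17578, 22389.7 and 24364 in vehicle. Within P14 the libraries were nearly equal, and within P15 and P19 FOLFIRINOX was lower. AZIN1 differed by −0.22 ± 0.17 on the log2 scale (95% interval −0.60 to 0.15, limma adjusted p = 0.375), and after GC trends were removed in the blocked fit it was called lower (−0.36, limma adjusted p = 7.0e-04). Its antisense gene AZIN1-AS1, which shares 344 exonic bases with it, had 56.0 to 119 normalized reads in FOLFIRINOX and 62.6 to 67.6 in vehicle, and the strand setting of the count is not given in the sources used here.

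Levels were compared between genes per kilobase of exon, using the union of exons in GENCODE 29. For SAT2 this union, 1643 bases, fills the whole gene at 7626234 to 7627876. For SMS it is 2160 bases of a gene at 21940573 to 21994835. Levels and their order between genes thus depend on these lengths, and other lengths were not tested. In FOLFIRINOX the order of means was OAZ1 at 9263 ± 865, SMS at 8898 ± 1054, SAT1 at 7746 ± 1202, SRM at 3074 ± 381, ODC1 at 2875 ± 158, AZIN1 at 2844 ± 307, SAT2 at 1441 ± 140.5, OAZ2 at 1328 ± 70.4, SMOX at 162 ± 32.7 and PAOX at 5.95 ± 3.65 normalized reads per kilobase (SD, n = 3). In vehicle it was SMS at 12999.8 ± 844, OAZ1 at 10899 ± 1901, ODC1 at 4044 ± 178, SRM at 3885 ± 1053, AZIN1 at 3337 ± 543, SAT1 at 2096 ± 279, SAT2 at 1303 ± 151, OAZ2 at 1181 ± 80.3, SMOX at 129 ± 32.6 and PAOX at 6.69 ± 1.54. OAZ1 and SMS changed places between libraries of the same group, as did SRM and AZIN1 and, with one or both of these, ODC1, so these neighbours did not differ beyond their spread. SAT2, OAZ2, SMOX and PAOX kept the same order in all 6 libraries. SAT1 was the third of the 10 members in each FOLFIRINOX library and the sixth in each vehicle library.

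**Figure D4:**
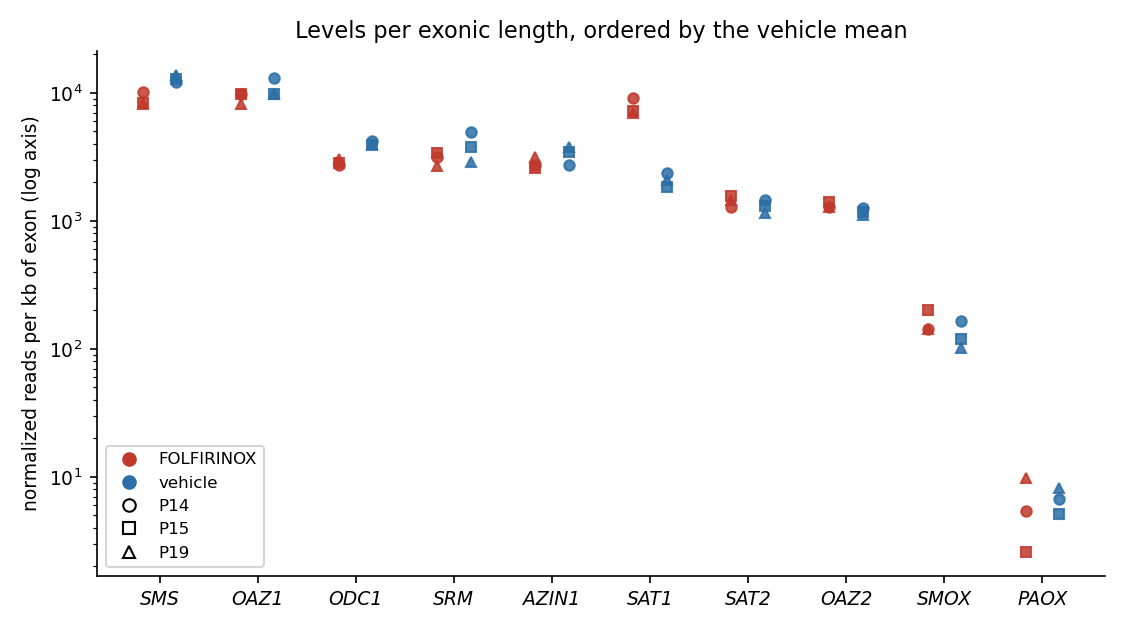
Normalized reads per kilobase of exon (log axis) of the polyamine genes in each library, FOLFIRINOX in red at the left of each pair and vehicle in blue at the right, ordered by the vehicle mean. SAT1 is sixth in vehicle at 2096 ± 279 and reaches 7746 ± 1202 in FOLFIRINOX, close to SMS and OAZ1.

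The balance between breakdown and synthesis transcripts followed from these levels and is given as a description. The size of each ratio depends on the exon lengths used, while its change between groups does not. The per-kilobase level of SAT1 was 3.35, 2.51 and 2.28 times that of ODC1 in FOLFIRINOX P14, P15 and P19, and 0.562, 0.468 and 0.521 times in vehicle P14, P15 and P19. Every FOLFIRINOX library thus had more SAT1 than ODC1 per kilobase, and every vehicle library less. SAT1 was 0.902, 0.862 and 0.841 times SMS in FOLFIRINOX and 0.195, 0.142 and 0.149 times in vehicle. Against SAT2, SAT1 was 7.06, 4.56 and 4.76 times as high in FOLFIRINOX and 1.64, 1.40 and 1.81 times in vehicle. The ratio of OAZ1 to AZIN1 had overlapping groups, at 3.56, 3.75 and 2.59 in FOLFIRINOX and 4.79, 2.83 and 2.57 in vehicle.

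Around the 10 members, 34 further genes on 5 lists of connected pathways were read from the same fit. The lists were written with earlier results of these data known, so their counts beside the background are a description. Of the 34 genes 25 passed the filter on low values. Of these 2 rose and 8 fell, beside a background of 11.4% and 12.2%, with a median log2 difference of −0.23 against 0.02 for all genes. With the replicate block 4 were higher and 9 lower, beside 22.3% and 21.8% of all genes. With GC trends also removed 3 were higher and 12 lower, beside 23.8% and 25.2%. Without both P14 libraries 1 was higher and 3 lower, beside 6.08% and 7.89% of all genes. The number lower was 5 without FOLFIRINOX P19, vehicle P14 or vehicle P15.

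Among other polyamine enzymes, AMD1 and AGMAT fell, 2 of 4 measured, beside 12.2% of all genes called lower. AMD1, the decarboxylase that supplies the aminopropyl group used by SRM and SMS, had 8006, 7011 and 9082 normalized reads in FOLFIRINOX, against 13736, 11401 and 16867 in vehicle. The groups did not overlap, and AMD1 was lower in each of the 3 P numbers. The log2 difference was −0.79 ± 0.18 (95% interval −1.19 to −0.39, limma adjusted p = 0.0098), and the call was lost without both P14 libraries (−0.80, limma adjusted p = 0.0611). With the P number as a replicate block the limma adjusted p of AMD1 was 5.2e-07. AGMAT, a relative of agmatinase whose role in mammalian polyamine synthesis is not settled, had 53.5 to 84.6 normalized reads in FOLFIRINOX and 122 to 138 in vehicle (−1.07 ± 0.27, limma adjusted p = 0.0161). Its call was lost without FOLFIRINOX P19, vehicle P14 or vehicle P15 (0.0627, 0.0532 and 0.0527) and without both P14 libraries (0.114). In the blocked fit the limma adjusted p of AGMAT was 0.0011. The diamine oxidase AOC1 had no read in any library, and SATL1 had no read in 5 of the 6.

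Ornithine supply held the largest difference of the 25 measured pathway genes, that of ARG2. ARG2, the mitochondrial arginase that makes ornithine from arginine, had 135, 66.9 and 76.6 normalized reads in FOLFIRINOX, against 745, 549.6 and 667 in vehicle. Every FOLFIRINOX library was far below every vehicle library, and the means were 92.7 ± 36.7 in FOLFIRINOX and 654 ± 98.3 in vehicle (SD, n = 3 each). The log2 difference was −2.86 ± 0.28 (95% interval −3.47 to −2.25, limma adjusted p = 3.1e-05), a fold of 0.138. SLC7A1, the cationic amino acid transporter that imports arginine and ornithine, had 8918, 10782 and 10857 in FOLFIRINOX, against 18092, 23916 and 17266 in vehicle (−0.95 ± 0.17, limma adjusted p = 0.0028). Of 5 measured genes 4 fell, beside 12.2% of all genes called lower. The other 2 of these 4 were named after their values were seen. They are ALDH18A1, which makes the precursor of proline and ornithine (−0.58 ± 0.15, limma adjusted p = 0.0177), and the mitochondrial ornithine carrier SLC25A15 (−0.50 ± 0.16, limma adjusted p = 0.0473). The remaining measured gene, OAT, also named after its values were seen, was not called (−0.23 ± 0.21, limma adjusted p = 0.475). Per kilobase of exon OAT was at 6203 ± 1017 in vehicle, against 270 ± 40.6 for ARG2. The ALDH18A1 call was lost without FOLFIRINOX P14 or P19, vehicle P15 or both P14 libraries and with common-total scaling (0.0544 to 0.0973). The SLC25A15 call was lost without any library but vehicle P19, without both P14 libraries, with common-total scaling, without the trend and without the filter (0.0629 to 0.176). In the blocked fit ALDH18A1 and SLC25A15 were both called lower (limma adjusted p = 7.2e-05 and 0.0031).

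In the hypusine pathway, which uses spermidine to modify a translation factor, the paralogs EIF5A and EIF5A2 moved in opposite directions. EIF5A, the widely expressed factor, had 20799.6, 24594 and 21033 normalized reads in FOLFIRINOX, against 44026, 39537 and 37251 in vehicle (−0.86 ± 0.15, 95% interval −1.19 to −0.53, limma adjusted p = 0.0021). EIF5A2 had 4467, 3560.3 and 5205 in FOLFIRINOX, against 2212, 1965 and 2695 in vehicle (0.94 ± 0.19, 95% interval 0.52 to 1.36, limma adjusted p = 0.0051). Neither pair of groups overlapped, and each direction held within all 3 P numbers. Without both P14 libraries EIF5A2 was at 0.90 (limma adjusted p = 0.0521), and in the blocked fit its limma adjusted p was 1.3e-07. Per kilobase of exon EIF5A remained the higher, at 7866 ± 756 against 789 ± 147 for EIF5A2 in FOLFIRINOX and 14306 ± 1224 against 409.6 ± 66.4 in vehicle.

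Among 5 measured transport genes 1 rose and 1 fell, beside 11.4% and 12.2% of all genes. GPC1, a heparan sulfate proteoglycan linked to polyamine uptake, had 6034, 9689 and 8853 normalized reads in FOLFIRINOX, against 4757, 4490.2 and 3769 in vehicle (0.89 ± 0.20, limma adjusted p = 0.0083). ATP13A2, the lysosomal polyamine exporter, had 791, 967 and 752 in FOLFIRINOX, against 1828, 1741 and 1138 in vehicle (−0.88 ± 0.21, limma adjusted p = 0.0125). Its call was lost without vehicle P14 (0.0551) and without both P14 libraries (0.113), while in the blocked fit the limma adjusted p was 7.5e-06. ATP13A3, a relative tied to polyamine uptake, had 15009, 19416 and 29404 in FOLFIRINOX, against 11834, 13685 and 18863 in vehicle. It was higher in FOLFIRINOX within every P number, but P19 was the highest library of each group and the groups overlapped (0.50 ± 0.25, limma adjusted p = 0.181). In the blocked fit ATP13A3 was called higher (limma adjusted p = 3.6e-04), also with GC trends removed (0.28, limma adjusted p = 0.0109).

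**Figure D5:**
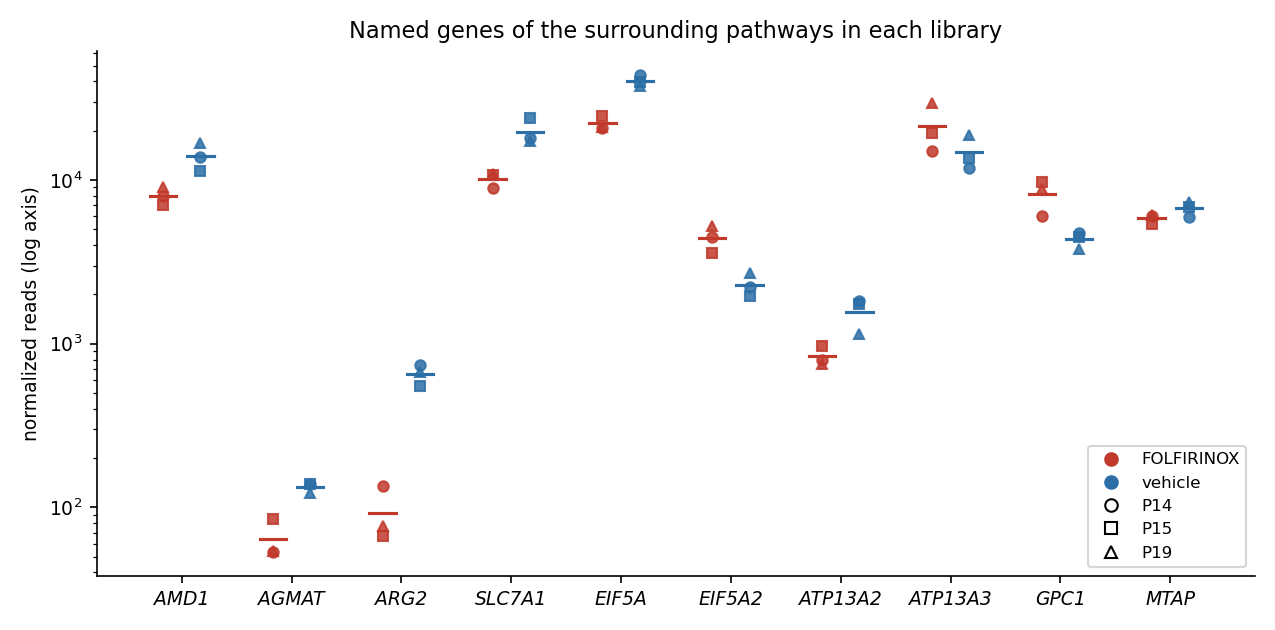
Normalized reads (log axis) of 10 named genes of the connected pathways in each library, FOLFIRINOX in red at the left of each pair and vehicle in blue at the right, with bars at the group means. ARG2 lies at 66.9 to 135 in FOLFIRINOX and 549.6 to 745 in vehicle, and EIF5A and EIF5A2 differ in opposite directions.

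Of 7 measured genes of S-adenosylmethionine supply and methionine salvage, which recycles the by-product of SRM and SMS, 0 were called by limma, edgeR or DESeq2. Over all genes limma called 11.4% higher and 12.2% lower. At an unadjusted p under 0.05, 1 of the 7 was lower in limma and in edgeR and 0 in DESeq2. With the replicate block 1 was called higher and 1 lower, beside 22.3% and 21.8% of all genes. With GC trends also removed 0 were higher and 3 lower, beside 23.8% and 25.2%. MTAP, the phosphorylase that clears this by-product, had 6036, 5368 and 6148 normalized reads in FOLFIRINOX, against 5923, 6852 and 7348 in vehicle. The groups overlapped, with a log2 difference of −0.19 ± 0.16 (95% interval −0.54 to 0.15, limma adjusted p = 0.399). MTAP was called lower after GC trends were removed in the blocked fit (−0.38, limma adjusted p = 4.2e-04).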

How the data were processed

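Messenger RNA was enriched (NEB) before library construction with KAPA reagents, per the labels' protocols. The submitters' processing notes name FastQC 0.12.1, STAR 2.7.11b, featureCounts 2.0.6, DESeq2 and GRCh38. The annotation release, strand setting and design formula were not given in the sources used here. The deposited values are a signal, gene counts divided by a size factor per library, and every value was a whole number of reads within 0.001 reads (100% of values), so the authors' reads were recovered. On these reads edgeR called 1820 genes higher and 2389 lower. The deposited table also has, from the authors, a log2 fold change per gene, a test score and p-values. Even counts made up 72.3% to 74.8% of counts below 50, more than odd counts in every library. Whether fragments were counted more than once was not tested. The read numbers given, low ones such as those of PAOX among them, may thus overstate the separate observations.

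Differences were tested with limma 3.58.1 (R 4.3.3) on log2(value + 1), with a mean-variance trend, treatment as the only term and Benjamini-Hochberg adjustment over 17951 genes. Fold changes are on the log2(value + 1) scale and are understated where values are low. The median 95% half-width of a log2 difference was 0.497. Alternatives tried were another pseudocount (0.5 or 8), a filter at 50 or none, TMM and common-total scaling, limma without trend, edgeR 4.0.16 and DESeq2 1.42.0 on recovered reads, P number as replicate block alone or with GC trends removed, and leaving out libraries. The P numbers come from the column names and appear in no label. Libraries of the same P number deviated together from their group means (correlations 0.257, 0.282 and 0.288 over genes, against −0.263 to −0.027 otherwise), so they were read as pairs. An exact permutation test of 3 against 3 cannot go below 0.1. The limma step was tested on simulated data. Where a difference of 1.5 times had been put in, it called 24 of 67 genes. At 2 times it called 53 of 67, and at 4 times 64 of 66. It also called 4 genes in which no difference had been put. Most simulated differences of 1.5 times were thus missed. The simulation used a single dispersion of 0.02 and no P number. Few of its 17130 genes were changed, against 23.6% called by limma here, so its rates may not hold for these data. The lack of a call does not show a level gene. The members and lists, written from general knowledge, were chosen with earlier results of these data known. Named were all members, 5 fixed pathway genes, up to 2 called genes per list and direction with a mean of 50 or more, MYC, treatment checks and the 4 genes nearest to SAT1 and to ODC1. Promoter windows came from RefSeq (GRCh38.p14) and lengths from GENCODE 29.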

Additional observations from a re-analysis of the deposited data

How the results depend on the processing

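SAT1 kept its call in all 18 alternatives (log2 difference 1.76 to 1.99). Of the 10 members, the number lower was 0 with no filter, with common-total scaling and with limma without trend, where 2 still had an unadjusted p under 0.05 in limma, and edgeR and DESeq2 each called 2 lower. Leaving out 1 library at a time gave 1 member higher and 0 to 1 lower, 2 pathway genes higher and 5 to 8 lower, and 1201 to 2214 genes higher and 1506 to 2156 lower in all. Without both P14 libraries 1 member was lower, 1 pathway gene was higher and 3 lower, with 1021 and 1326 of all genes. With the replicate block on P number, 4 pathway genes were higher, and 3995 of all genes were higher and 3918 lower. With the block and GC trends removed, 3 members were higher (SAT1, SAT2 and SMOX) and 3 lower (ODC1, SMS and AZIN1), with 4277 and 4532 of all genes. The cause was not tested. PAOX was at −0.74 to 0.15 over the fits that left out 1 library, above 0 without FOLFIRINOX P15, and could not be tested with a filter at 50. PAOX had 6 to 24 reads per library, so counting error limits its value.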

Other observations

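Genes whose log2(value + 1) over the 6 libraries followed SAT1 most closely were DCN, H4C14, SERPINB10 and UPK1B, with Pearson correlations of 0.999, 0.998, 0.998 and 0.998. All 4 shared the group difference and the P14 maximum of each group, and 121 genes averaging at least 100 normalized reads in one group passed 0.98. DCN, the proteoglycan decorin, averaged 411620 ± 52966 normalized reads in FOLFIRINOX and 163369 ± 18097 in vehicle. H4C14 is a histone gene with near-identical copies, so its count is uncertain. The genes nearest to ODC1 were BCL2L13, MTA1-DT, C17orf58 and TENT5B, with correlations of 0.994, 0.994, 0.992 and 0.991, over the same 6 libraries, and 66 genes passed 0.98. BCL2L13 was not called (log2 difference −0.11, limma adjusted p = 0.613), while the other 3 fell.

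The divergent transcript ODC1-DT, named after its values were seen, had 94.6, 93.4 and 112 normalized reads in FOLFIRINOX, against 69.7, 64.7 and 69.2 in vehicle, on the high side where ODC1 was on the low side (log2 difference 0.55 ± 0.25, limma adjusted p = 0.137). SAT1-DT had 3.74 to 6.88 normalized reads in FOLFIRINOX and 1.87 to 6.37 in vehicle and was not tested. Pseudogenes named after SRM and SMS had no read in any library, and OAZ1P1 had reads in 1 vehicle library only.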
